A study of Mus musculus with 6 samples.

Results

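The laminins, the proteins that tie them into basement membranes and the integrins that bind them or other ligands were followed in sham-operated sciatic nerves of female and male mice. Members were chosen by gene symbol: 40 genes of the 54309 in the transcript files, namely 10 laminin chains, 4 basement membrane linkers, 18 integrin alpha subunits and 8 integrin beta subunits. All 40 symbols were found, each under 1 gene identifier, with 217 annotated transcripts between them.

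The 2 groups were female nerves and male nerves of C57BL/6 mice (the labels also give C57BL6/J) aged 6 to 8 weeks. All mice of both groups carried no engineered allele that the labels name, and all underwent the same sham operation: under isoflurane the left sciatic nerve was exposed at mid-thigh and left uncut, and sciatic nerve tissue was taken 24 h later. Each group held 6 mice as 3 pools of 2 mice, so that 1 library stood for 1 pool and differences between mice of a pool could not be seen. No nerve without surgery entered the comparison, so the effect of the operation itself could not be told apart from the resting state.

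A laminin is a cross-shaped trimer of 1 alpha, 1 beta and 1 gamma chain, named by the numbers of its chains. Around each Schwann cell and its axon, laminins assemble into a basement membrane that nidogens, perlecan and agrin link to type IV collagen. Schwann cells hold on to it through integrins, which are pairs of an alpha and a beta subunit, and through dystroglycan. Laminin containing the alpha2 chain is required for peripheral myelination, and its loss causes a muscular dystrophy with neuropathy in mice and humans. Leukocytes carry integrins of their own, built on beta2 and beta7, for leaving vessels and moving in tissue.

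Estimated read pairs per pool totalled 55949876 to 66285694 in female nerves and 59165914 to 78473057 in male nerves. Xist, expressed from the inactive X chromosome, was at 120 to 124 TPM in female pools and at 0.0245 to 0.557 TPM in male pools, as the sex labels say. TPM scales reads by transcript length and by the pool's total, so it can be compared between genes of a pool. Pmp22, a peripheral myelin protein gene of Schwann cells, was at 10218 to 11858 TPM in female pools and 10925 to 12291 TPM in male pools. Female pool 2 stood apart in 12 skeletal muscle markers, which summed to 3723 TPM there, against 18.8 and 69.1 TPM in the other female pools and 63.8 to 239 TPM in male pools. In bulk nerve, fewer cells of a type and less RNA per cell cannot be told apart.

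The sequences that matter most for reading these levels are alternative exons, because they separate forms of one gene that bind or signal differently. They are printed from the GRCm39 genome at exons of the GENCODE M39 annotation, 5′ to 3′ on the coding strand, with the alternative exon in capitals and the spliced bases beside it in lower case. For Itga6, the capitals are the 130-base exon 25 at chr2:71683878-71684007 (+ strand), which encodes one of the alternative cytoplasmic tails of the alpha6 subunit and holds its stop codon.
Itga6 tail exon: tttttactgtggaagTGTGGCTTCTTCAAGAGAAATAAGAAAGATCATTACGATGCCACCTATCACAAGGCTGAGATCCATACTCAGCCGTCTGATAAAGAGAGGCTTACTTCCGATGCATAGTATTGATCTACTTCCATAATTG
For Itga7, exon 5 is either of a pair of exons that exclude each other and lie in the ligand-binding head: 120 bases at chr10:128777691-128777810 or 132 bases at chr10:128777314-128777445 (+ strand).
Itga7 shorter exon: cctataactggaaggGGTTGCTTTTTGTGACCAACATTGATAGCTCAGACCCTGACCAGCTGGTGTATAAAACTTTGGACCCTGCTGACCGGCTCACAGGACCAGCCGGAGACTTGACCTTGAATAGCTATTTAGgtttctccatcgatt
Itga7 longer exon: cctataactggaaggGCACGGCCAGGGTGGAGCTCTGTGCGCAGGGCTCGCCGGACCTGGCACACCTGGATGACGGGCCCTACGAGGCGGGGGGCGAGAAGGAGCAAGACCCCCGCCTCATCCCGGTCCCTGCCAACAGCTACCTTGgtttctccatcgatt
For Agrn, the capitals are the 12-base exon at chr4:156254003-156254014 and the 24-base and 33-base exons at chr4:156253003-156253026 and chr4:156252234-156252266 (− strand). The last 2 are the exons that neurons splice into agrin to make the form that clusters acetylcholine receptors.
Agrn 12-base exon: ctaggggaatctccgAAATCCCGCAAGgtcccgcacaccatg
Agrn 24-base exon: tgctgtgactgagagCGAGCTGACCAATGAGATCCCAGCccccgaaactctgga
Agrn 33-base exon: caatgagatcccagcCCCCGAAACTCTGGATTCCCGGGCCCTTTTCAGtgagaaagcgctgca

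The genes of this group covered a wide range of levels. Of the 40 members, 10 had a mean over 100 TPM, 16 lay between 10 and 100 TPM, 10 between 1 and 10 TPM and 4 under 1 TPM. Against the 16310 genes that passed the low-count filter, 22 members were above the median of 15.1 TPM and 10 were above the 90th percentile of 93.2 TPM. Those 10 were Itga6, Itgb1, Lamb2, Nid1, Itgam, Itgb2, Lamb1, Itgb4, Hspg2 and Lamc1. The filter asked for a CPM, a gene's read pairs scaled by the pool's total, of 0.5 or more in 3 or more pools, and 37 members passed it. The 3 that did not were Lama1, Itgad and Itgb6.

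**Figure D1:**
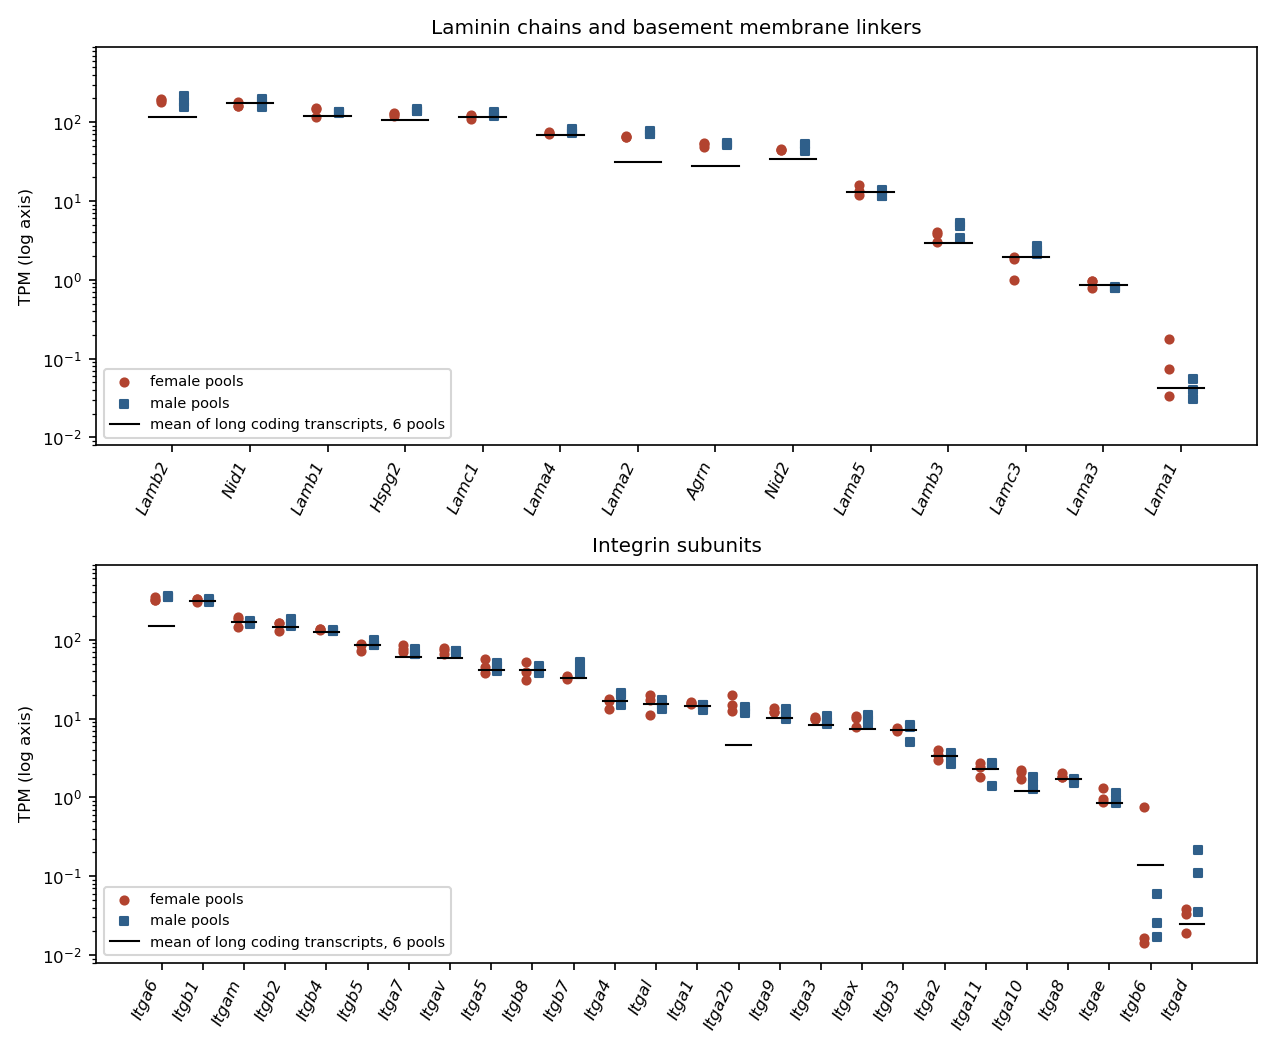
TPM (log axis) of the 14 laminin chains and linkers and of the 26 integrin subunits in each pool, with 3 female pools (circles) left of 3 male pools (squares), ordered by mean. The black line is the mean over 6 pools of the long coding transcripts alone, which lies far below the points for Itga6, Lama2, Agrn and Itga2b.

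Among the laminin alpha chains, 3 made up almost all of the RNA: Lama4, Lama2 and Lama5. Lama4, a chain of vessel, endoneurial and perineurial laminins, was at 74.4, 72.1 and 70.5 TPM in female pools 1, 2 and 3, against 83.1, 77.1 and 71.9 TPM in male pools 1, 2 and 3. Lama2, an alpha chain of the Schwann cell basement membrane but not the only one, was at 64.1, 65.3 and 66.7 TPM in female pools, against 70.0, 76.7 and 70.9 TPM in male pools. Lama4 and Lama2 were thus within a narrow band of each other: Lama4 was the higher in 6 of 6 pools, by a mean ratio of 1.09 (range 1.01 to 1.19). The Lama2 values of the female pools all lay below those of the male pools in TPM, but overlapped after TMM normalization, and its log2 fold change, female over male, was -0.14 ± 0.07 (SE), with an edgeR adjusted p of 0.838.

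Lama5, the alpha chain of many mature epithelial and vessel basement membranes, was lower, at 15.9, 13.2 and 12.1 TPM in female pools, against 13.7, 11.6 and 11.5 TPM in male pools. The groups overlapped, and female pool 1, the highest for Lama5, had the lowest sum of 9 endothelial markers (328 TPM, against 334 to 428 TPM in the other 5 pools). The part of endothelial cells in the Lama5 values was not tested. Lama3, an epithelial chain, was at 0.781 to 0.974 TPM in female pools and 0.781 to 0.818 TPM in male pools. Lama1, the chain of embryonic basement membranes, was at 0.0334 to 0.178 TPM in female pools and 0.0309 to 0.0550 TPM in male pools, with 13 to 29 read pairs a pool. An exon of a second gene overlaps Lama3 on the same strand, so part of its low value is uncertain.

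Of the summed alpha chain TPM, Lama4 held 47.4% ± 0.54 in female pools and 47.4% ± 1.86 in male pools (SD, n = 3 each), with p = 1 in an exact two-sided permutation test. Lama2 held 42.9% ± 1.53 in female pools and 44.5% ± 2.41 in male pools. Lama5 held 8.98% ± 1.12 in female pools and 7.53% ± 0.59 in male pools, and Lama1 and Lama3 together held 0.657% ± 0.103 in female pools and 0.516% ± 0.00683 in male pools.

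The near-equal shares of Lama2 and Lama4 rested on which transcripts were counted. The full-length Lama2 transcript, of 9614 bases and 65 exons, was at 31.2 ± 2.94 TPM (SD, n = 6), and a coding transcript of 3383 bases with 22 exons was at 27.8 ± 3.28 TPM. Lama4 had 91.0% of its TPM on its long coding transcript. With only long coding transcripts, meaning protein-coding ones at least 0.5 of the length of the gene's longest, the Lama4 share was 59.98% in female pools and 60.2% in male pools, and Lama4 exceeded Lama2 by a mean ratio of 2.19 (range 2.02 to 2.46). Neither count is a count of protein.

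Lamb2 and Lamb1 were the beta chains of the nerve, and both are partners of alpha2 and alpha4 in known trimers. Lamb2 was at 189, 196 and 178 TPM in female pools, against 214, 179 and 154 TPM in male pools. Lamb1 was at 153, 146 and 116 TPM in female pools, against 131, 135 and 134 TPM in male pools. For both, the female and male pools overlapped. Lamb2 held 57.1% ± 2.47 of the summed beta chain TPM in female pools and 56.7% ± 4.30 in male pools (SD, n = 3 each; exact two-sided permutation p = 0.9).

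Lamb2 was above Lamb1 in 6 of 6 pools, by a mean ratio of 1.37. That order did not hold for full-length forms. A 473-base coding fragment carried 35.0 TPM of Lamb2 and a retained-intron fragment of 578 bases another 16.2 TPM. On long coding transcripts Lamb2 averaged 117 TPM and Lamb1 120.7 TPM, Lamb2 was the higher in 3 of 6 pools, and its share was 48.4% in female pools and 49.0% in male pools. Lamb3, the beta chain of epithelial anchoring laminin, was at 2.97 to 4.00 TPM in female pools and 3.39 to 5.31 TPM in male pools.

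**Figure D2:**
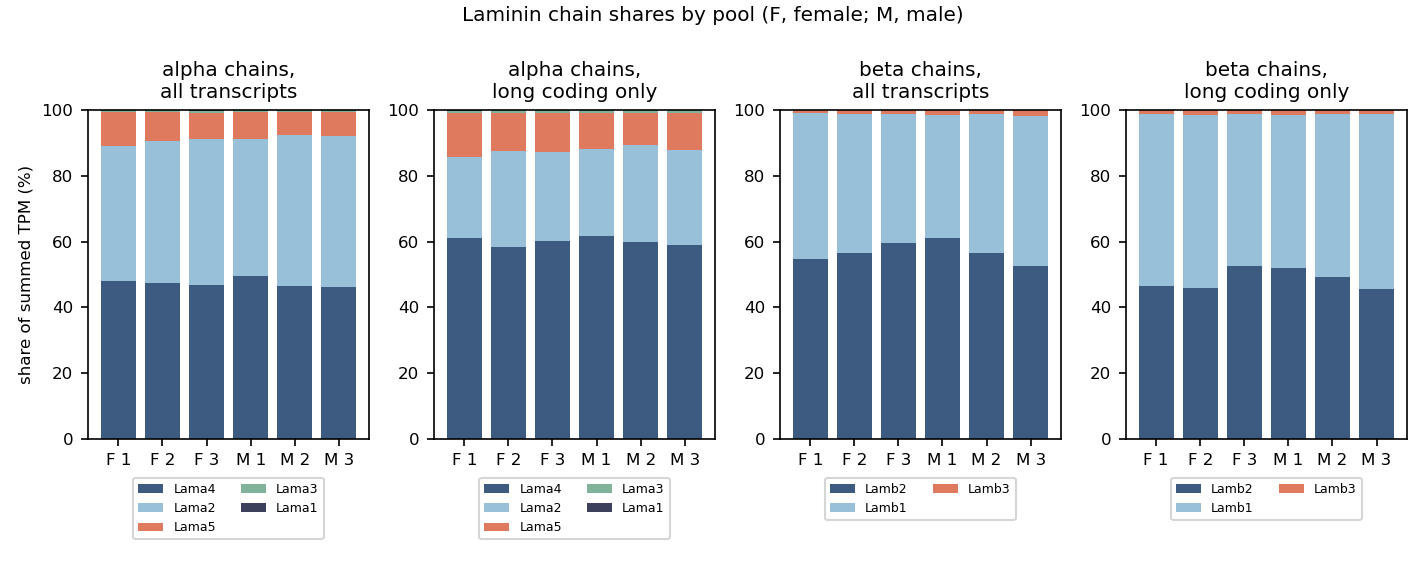
Share of summed TPM (%) held by each laminin alpha chain (2 left panels) and beta chain (2 right panels) in each pool, female pools left of male pools, with all transcripts and with long coding transcripts only. Lama4 and Lama2 take similar shares with all transcripts, while with long coding transcripts Lama4 takes 58.5% to 61.7% in every pool and Lamb2 and Lamb1 are close to even.

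Lamc1, the gamma chain of nearly all laminins, was the gamma chain of the nerve, at 123, 119.6 and 110.1 TPM in female pools, against 133, 120.3 and 126 TPM in male pools. It held 98.7% ± 0.486 of the gamma chain TPM in female pools and 98.1% ± 0.268 in male pools (SD, n = 3 each). Lamc3, a gamma chain described in skin, brain and nerve at sites without a continuous basement membrane, made up the rest. It was at 0.985, 1.97 and 1.85 TPM in female pools, against 2.36, 2.65 and 2.13 TPM in male pools, and every female pool was below every male pool.

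The sums of the 3 chain classes were unequal. Summed beta chains were 2.76 ± 0.0918 times the summed gamma chains in female pools and 2.48 ± 0.172 times in male pools (SD, n = 3 each), and summed alpha chains were 1.28 ± 0.0552 times in female pools and 1.27 ± 0.0760 times in male pools. With long coding transcripts only, the alpha to gamma ratio was 0.956 in female pools and 0.971 in male pools, and the beta to gamma ratio was 2.07 in female pools and 2.05 in male pools. Thus beta chain RNA exceeded gamma chain RNA about as 2 to 1 even without the short fragments, and alpha and gamma chain RNA were nearly even.

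For each of 12 laminin trimers, the chain at the lowest level was taken as the most RNA that its chains have in common. The trimers of Lama4 with Lamb1 or Lamb2 and Lamc1 had the highest such level, 72.3 TPM in female pools and 77.4 TPM in male pools. Next were those of Lama2 with the same partners, at 65.4 TPM in female pools and 72.5 TPM in male pools, followed by those of Lama5, at 13.7 TPM in female pools and 12.3 TPM in male pools. With long coding transcripts only, the Lama4 trimers came to 67.0 TPM in female pools and 69.2 TPM in male pools, and the Lama2 trimers to 30.1 TPM in female pools and 32.4 TPM in male pools. In these 6 trimers the alpha chain was always the lowest. In trimers with Lamc3 that chain was the lowest, at 1.600 TPM in female pools and 2.38 TPM in male pools, and trimers with Lama3 or Lama1 stayed under 1 TPM. The beta and gamma chains are shared between trimers, and RNA levels do not show which trimers formed.

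The linkers were all well above the median gene. Nid1, nidogen-1, which bridges the laminin gamma1 chain and type IV collagen, was at 181, 161 and 159 TPM in female pools, against 196, 188 and 157 TPM in male pools. Its level was 1.42 ± 0.0668 times that of Lamc1 in female pools and 1.43 ± 0.167 times in male pools (SD, n = 3 each). Nid2 was at 43.8, 45.7 and 44.6 TPM in female pools, against 53.2, 51.6 and 43.4 TPM in male pools, so that Nid1 exceeded Nid2 by a mean ratio of 3.70. With long coding transcripts only, that ratio was 5.12 (range 4.68 to 5.52). The female and male pools overlapped for both nidogens.

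Hspg2 encodes perlecan, a heparan sulfate proteoglycan of basement membranes. It was at 127, 130.4 and 120.5 TPM in female pools, against 147, 137 and 139 TPM in male pools. These TPM values did not overlap, but the TMM-normalized CPM did, and the log2 fold change was -0.07 ± 0.11 (SE; edgeR adjusted p = 0.939). An 820-base fragment without coding sequence carried 22.1 ± 9.06 TPM of the gene in female pools and 26.5 ± 3.70 TPM in male pools (SD, n = 3 each), and its part in that difference was not tested. On its long coding transcripts Hspg2 averaged 105 TPM.

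Agrn, agrin, lies on chromosome 4 (chr4:156249740-156282014, − strand) and was at 48.8, 54.2 and 53.0 TPM in female pools, against 54.4, 50.7 and 53.5 TPM in male pools. Its protein-coding transcripts without the 3 exons printed above held 27.7 ± 1.32 TPM (SD, n = 6). The 1 protein-coding transcript that holds all 3 was assigned 33 read pairs over all 6 pools and was at 0 to 0.113 TPM. The 24-base exon also lies in a retained-intron transcript at 16.4 TPM, and the 12-base exon in another at 5.78 TPM, so those reads do not show the exons spliced into coding RNA. Of 8 neuron markers, 5 passed the filter, the list summed to 10.9 to 12.6 TPM in female pools and 11.9 to 17.3 TPM in male pools, and Prph, an intermediate filament of peripheral neurons, was at 3.24 to 4.06 TPM in female pools and 3.25 to 4.42 TPM in male pools. Rbfox3, the marker of neuronal nuclei among them, did not pass and was at 0.0444 to 0.0898 TPM in female pools and 0.0838 to 0.153 TPM in male pools.

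Type IV collagen, the other network of the basement membrane, is described from 6 genes. Col4a1, the most abundant, was at 320.6, 289 and 277 TPM in female pools, against 328, 285 and 267 TPM in male pools. Col4a2, its partner in the common trimer, was at 218, 191 and 183 TPM in female pools, against 216, 191 and 179 TPM in male pools. These values put Col4a1 above every laminin chain and linker in each pool. None of the 6 genes was called between the sexes, and Col4a6, the least abundant at 0.131 to 0.171 TPM in female pools and 0.202 to 0.246 TPM in male pools, was the only one with an unadjusted p under 0.05 (log2 fold change -0.58 ± 0.18, SE; edgeR adjusted p = 0.657). Such an unadjusted p was given to 6.11% of all genes tested.

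Of the laminin-binding integrin subunits, Itga6 had the highest summed level of all 40 members. It lies at chr2:71575960-71689757 (+ strand) and was at 320.3, 349 and 319 TPM in female pools, against 348, 359 and 351 TPM in male pools. That rank rested on 1 short transcript. Of 2721 bases and 3 exons, and with no annotated coding sequence, it held 54.1% ± 2.34 of Itga6 TPM in female pools and 55.3% ± 1.10 in male pools (SD, n = 3 each). Its last exon ends 1658 bases beyond the end of the main coding transcript. The long coding transcripts of Itga6 averaged 150 ± 8.98 TPM (SD, n = 6), below Itgb1 in 6 of 6 pools and above the long coding transcripts of Itgb4 in 6 of 6 pools.

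The tail exon of Itga6 printed above was in the main coding transcript, which averaged 144 ± 8.56 TPM (range 129 to 153). Coding transcripts that skip it summed to 1.39 ± 0.139 TPM. However, the short transcript also skips it, joining the exon before it to the exon after it, at 186 ± 11.2 TPM. The files do not tell how much full-length RNA of each tail form lies behind that short transcript, so no ratio of the tail forms is given.

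Itga7, the other main laminin-binding alpha subunit, is known from muscle and Schwann cells and lies at chr10:128769621-128794169 (+ strand). It was at 85.7, 76.7 and 69.4 TPM in female pools, against 77.3, 65.2 and 65.6 TPM in male pools, with a log2 fold change of 0.21 ± 0.10 (SE; edgeR adjusted p = 0.831). Female pool 2, with the highest skeletal muscle markers, was between the other 2 female pools for Itga7, and the part of muscle in the Itga7 values was not tested. The transcript with the shorter exon 5 was at 49.9 ± 6.77 TPM and the one with the longer exon 5 at 9.97 ± 0.53 TPM (SD, n = 6). The shorter exon made up 83.8% ± 1.41 of the 2 forms in female pools and 82.6% ± 2.13 in male pools (SD, n = 3 each). Itga3, a laminin receptor subunit of epithelia and some glia, was at 9.86 to 10.3 TPM in female pools and 8.45 to 10.9 TPM in male pools.

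Itgb4 pairs only with Itga6 to bind laminin, and its long cytoplasmic tail links the receptor to the cytoskeleton. It was at 134, 138 and 138 TPM in female pools, against 133, 129 and 131 TPM in male pools, a spread of 3.46 TPM (SD, n = 6), the smallest relative to its mean among the members over 100 TPM. Long coding forms carried 92.8% of it. The form without either of a pair of alternative tail exons was at 85.6 ± 1.98 TPM, and made up 68.7% ± 0.447 of the 4 main coding forms in female pools and 69.2% ± 1.22 in male pools. The 8 markers of keratinocytes, a cell type that also carries Itga6 and Itgb4, summed to 4.88 to 6.61 TPM in female pools and 5.93 to 6.57 TPM in male pools. Krt10, Col17a1 and Trp63 passed the filter, and Krt10, at 3.65 to 5.63 TPM in female pools and 4.95 to 5.74 TPM in male pools, was the one marker over 1 TPM. Of the other 5, Krt5 and Dsg3 were at 0 read pairs in all 6 pools, which allows at most 3 a pool by counting error alone, and Krt14 was at 0.0105 TPM in 1 pool and 0 in the others.

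**Figure D3:**
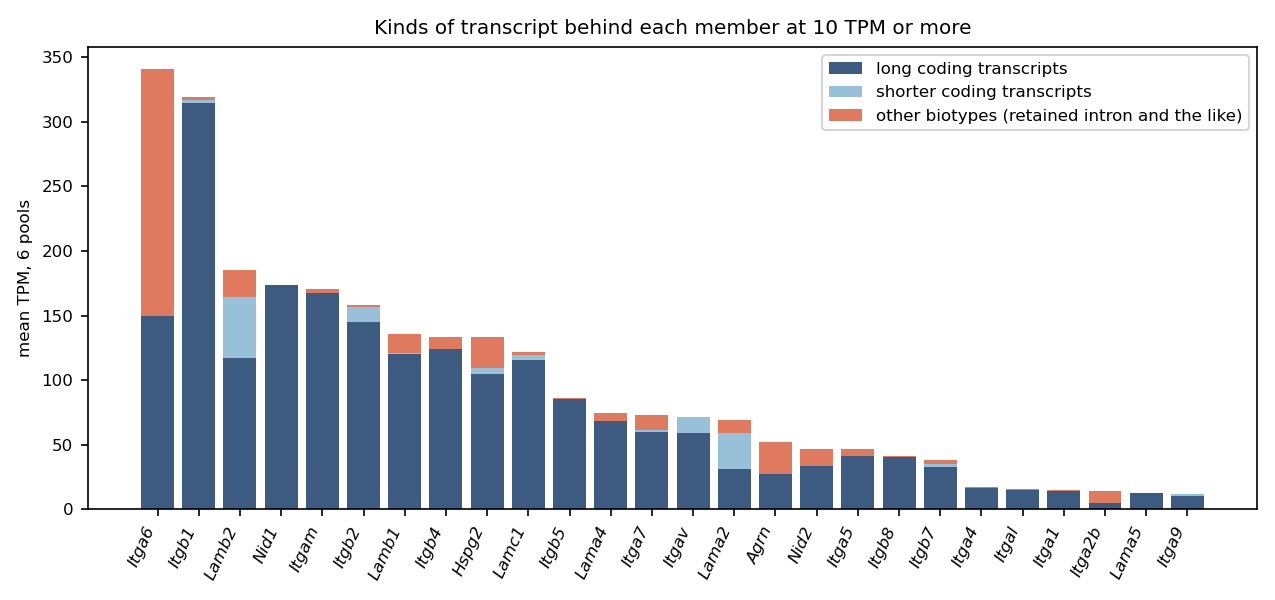
Mean TPM over 6 pools of the 26 members at 10 TPM or more, split into long coding transcripts, shorter coding transcripts and other biotypes. Itgb1, Nid1 and Itgam consist almost wholly of long coding transcripts, whereas most of the Itga6 and Itga2b TPM lies on other transcripts.

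Itgb1, the partner of most alpha subunits and a subunit needed for axonal sorting and myelination by Schwann cells, was the most abundant member by long coding transcripts, at 315 TPM. In all it was at 329, 331 and 306 TPM in female pools, against 317, 328 and 305 TPM in male pools. The 2 groups overlapped and differed by -0.03 ± 0.06 on the log2 scale (SE; edgeR adjusted p = 0.958). Itgb1 held 41.6% ± 0.195 of the summed beta subunit TPM in female pools and 39.8% ± 2.33 in male pools (SD, n = 3 each; exact two-sided permutation p = 0.4).

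Of the alpha subunits that pair with it, Itga1 to Itga11 summed to 1.61 ± 0.0149 times Itgb1 in female pools and 1.68 ± 0.0548 times in male pools (SD, n = 3 each; exact two-sided permutation p = 0.2). With long coding transcripts only, that ratio was 0.983 in female pools and 0.983 in male pools. With Itgav, which also has other beta partners, added to the sum, it was 1.83 ± 0.0273 in female pools and 1.90 ± 0.0662 in male pools (SD, n = 3 each), and 1.17 in female pools and 1.17 in male pools with long coding transcripts. Laminin-binding subunits held 80.6% ± 1.98 of the Itga1 to Itga11 sum in female pools and 81.3% ± 1.198 in male pools, and with long coding transcripts 70.5% in female pools and 70.3% in male pools. Within this sum, Itga6 and Itga4 also pair with Itgb4 and Itgb7.

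The 4 collagen-binding alpha subunits were lower than the laminin-binding Itga6 and Itga7, though Itga1 was above Itga3. Itga1, the highest of the 4, was at 16.02, 15.9 and 15.3 TPM in female pools, against 14.7, 15.1 and 12.8 TPM in male pools, apart in TPM but with overlap in normalized CPM. Itga2 was at 2.95 to 3.98 TPM in female pools and 2.62 to 3.61 TPM in male pools, and Itga11, a subunit of fibroblasts, at 1.84 to 2.77 TPM in female pools and 1.39 to 2.70 TPM in male pools. Itga10, known from cartilage, is described with the sex comparison.

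Among subunits that bind the RGD motif of fibronectin and vitronectin, Itgav and Itga5 led. Itgav was at 78.9, 74.4 and 65.3 TPM in female pools, against 72.5, 69.0 and 71.3 TPM in male pools. Itga5, the fibronectin receptor subunit, was at 57.7, 44.5 and 38.0 TPM in female pools, against 51.4, 40.8 and 46.5 TPM in male pools. Both overlapped between the sexes, and Itga5 varied more within the females than between the groups. Itga8, a subunit of smooth muscle and mesenchyme, was at 1.82 to 2.04 TPM in female pools and 1.55 to 1.70 TPM in male pools, and its normalized CPM overlapped.

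Itgav has several beta partners, and Itgb5, a vitronectin receptor subunit, was the highest after Itgb1, at 71.9, 85.1 and 88.5 TPM in female pools, against 87.1, 86.6 and 98.2 TPM in male pools. Itgb8, which with Itgav activates latent TGF-beta, was at 51.6, 39.4 and 31.0 TPM in female pools, against 37.5, 46.2 and 41.3 TPM in male pools. Neither separated the sexes. Itgb3 was at 6.88 to 7.66 TPM in female pools and 4.98 to 8.32 TPM in male pools. Together Itgb3, Itgb5, Itgb6 and Itgb8 were 1.79 ± 0.136 times Itgav in female pools and 1.97 ± 0.114 times in male pools.

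Itgb6, an epithelial subunit, was at 0.746 TPM in female pool 2 and at 0.0141 and 0.0166 TPM in the other female pools, against 0.0171 to 0.0590 TPM in male pools. The highest pool had 96 read pairs and the lowest 2. Female pool 2 was also the pool with the high skeletal muscle markers, and the part of other tissue in the Itgb6 value was not tested.

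Itga2b, the platelet subunit that pairs with Itgb3, was at 19.8, 14.7 and 12.5 TPM in female pools, against 14.01, 12.8 and 11.8 TPM in male pools. Its long coding transcript held 32.6% of that, 4.65 TPM. Of the 7 platelet markers, Gp9, Gp1ba, Gp1bb, Treml1 and Gp6 did not pass the filter and reached at most 1.22 TPM in any pool, while Pf4 was at 858 to 1109 TPM in female pools and 657 to 949 TPM in male pools. Ppbp, the last of the 7 and a platelet chemokine like Pf4, was at 252, 165 and 106 TPM in female pools, against 84.9, 92.4 and 124 TPM in male pools. Female pool 1 was the highest for Itga2b, Pf4 and Ppbp alike, and the part of platelets in the Itga2b value was not tested. Pf4 is also made by macrophages.

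Itga4 and Itga9 make up a pair of related alpha subunits that bind fibronectin forms and other ligands. Itga4, carried by leukocytes, was at 17.8, 16.9 and 13.3 TPM in female pools, against 20.2, 20.9 and 14.7 TPM in male pools. Itga9 was at 13.6, 12.3 and 12.0 TPM in female pools, against 13.3, 11.5 and 9.75 TPM in male pools. The groups overlapped for each, and the log2 fold change of Itga4 was -0.29 ± 0.14 (SE; edgeR adjusted p = 0.831).

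Leukocyte integrins were led by Itgam and Itgb2, which together form the complement receptor of neutrophils and macrophages. Itgam was at 195, 182 and 147 TPM in female pools, against 164, 159 and 175 TPM in male pools. Itgb2 was at 163, 162 and 128 TPM in female pools, against 164, 148 and 186 TPM in male pools. Itgal, the subunit of the lymphocyte function antigen, was at 17.2, 19.8 and 11.1 TPM in female pools, against 17.3, 14.7 and 13.4 TPM in male pools. All 3 were lowest in female pool 3, which also had the lowest sum of 8 neutrophil markers, 3431 TPM, against 3784 to 6040 TPM in the other 5 pools. The part of neutrophils in these values was not tested.

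Itgad, a subunit of some tissue macrophages, was at 0.0191 to 0.0386 TPM in female pools and 0.0349 to 0.215 TPM in male pools, with 3 to 7 read pairs a pool. Itgae, which with Itgb7 marks lymphocytes in epithelia, was at 0.873 to 1.33 TPM in female pools and 0.850 to 1.12 TPM in male pools. The 10 lymphocyte markers summed to 9.16 to 12.1 TPM in female pools and 8.42 to 14.2 TPM in male pools. Itgad and Itgam each overlap an exon of a second gene on the same strand, as do Itga1 and Itga10, so reads of the low ones are uncertain.

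The leukocyte alpha subunits Itgal, Itgam, Itgax and Itgad summed to 1.37, 1.31 and 1.299 times their only partner Itgb2 in female pools, against 1.17, 1.24 and 1.06 times in male pools. Every female pool was above every male pool, with means of 1.33 ± 0.0374 in female pools and 1.16 ± 0.0908 in male pools (SD, n = 3 each). The exact two-sided permutation p was 0.1, the smallest that 3 pools against 3 can give, and 0.5 after Benjamini-Hochberg adjustment over the 5 shares and ratios tested. None of the other 4 had an adjusted p under 0.5.

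For the integrin pairs, the lower of the 2 subunits was taken in the same way as for the trimers. Itga6 with Itgb1 had the highest such level of 24 pairs, 319 TPM in female pools and 317 TPM in male pools, and then Itgam with Itgb2, at 151 TPM in female pools and 162 TPM in male pools, and Itga6 with Itgb4, at 136 TPM in female pools and 131 TPM in male pools. With long coding transcripts only, Itga6 with Itgb1 came to 150 TPM over the 6 pools, Itgam with Itgb2 to 145 TPM and Itga6 with Itgb4 to 124 TPM, which leaves the first 2 within their SDs of 8.98 and 17.6 TPM. Itga7 and Itgav with Itgb1 and Itgav with Itgb5 were next, at 59.4 to 59.9 TPM. Pairs with Itgad or Itgb6 stayed under 1 TPM. Subunits are shared between pairs, as Itga6 is between Itgb1 and Itgb4. The levels of such pairs therefore cannot be added, and RNA levels do not show which pairs formed.

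The comparison of the sexes asks whether female and male nerves differ in these genes when the nerve was exposed but not cut. No member was called: of the 37 tested, 0 had an adjusted p under 0.1 in edgeR's quasi-likelihood test, against 10 of 16310 genes in all (0.0613%, 4 higher and 6 lower in females). At an unadjusted p under 0.05 edgeR gave 3 of 37 members, where 6.11% of all genes tested had such a p: 1 was higher in females (2.49% of all genes) and 2 were lower (3.62%). The total of 10 genes was 4 without female pool 1, 3 without male pool 1 and 4 without male pool 2, while no member was called in any of these fits. DESeq2 called 159 genes in all (0.975%) and limma 18 (0.11%), again with 0 members. An unadjusted p under 0.05 was given to 4 members by DESeq2, against 6.32% of all genes, and to 6 members by limma, against 15.4% of all genes. The median log2 fold change of the 37 members was 0.05, with 23 above 0 and 14 below, and the median over all genes was 0.00. Without female pool 1 the members' median was -0.02, with 16 above 0.

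**Figure D4:**
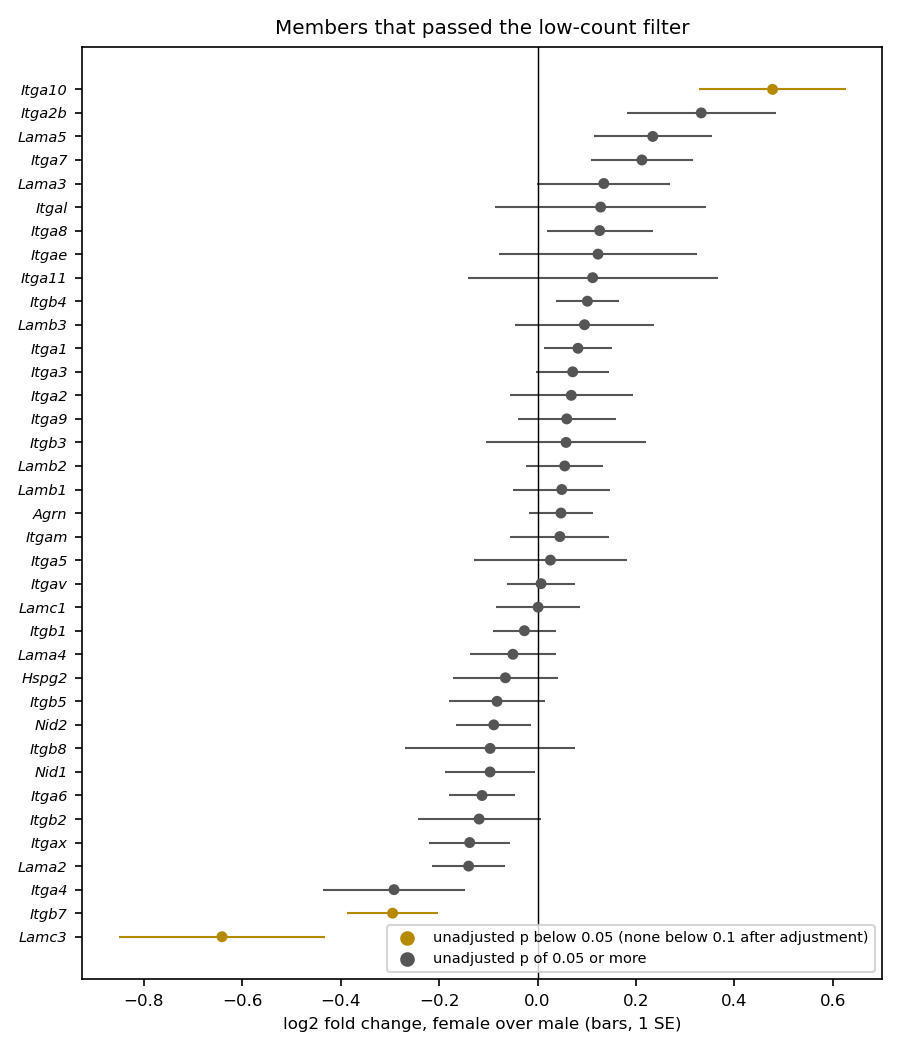
Log2 fold change, female over male (points), with 1 SE (bars) for the 37 members tested in 3 female and 3 male pools. The values run from -0.64 for Lamc3 to 0.48 for Itga10, and no member had an adjusted p under 0.1.

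The normalized CPM of the female and male pools did not overlap for 6 members, where 11.2% of all genes tested showed this. The female pools were above for Itga10 and Itgb4 (5.16% of all genes) and below for Lamc3, Itgb7, Itgax and Itga6 (6.04% of all genes). Itga10, Lamc3 and Itgb7 were also the 3 with an unadjusted p under 0.05.

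Itga10, the alpha subunit of a collagen receptor, lies at chr3:96552900-96571835 (+ strand). Its normalized CPM was 5.92, 5.06 and 4.34 in female pools, against 3.68, 3.32 and 3.99 in male pools. Every female pool was above every male pool, but female pool 3 by little. Its log2 fold change was 0.48 ± 0.15 (SE), with an edgeR adjusted p of 0.654, and its TPM, at 1.73 to 2.25 in female pools and 1.26 to 1.83 in male pools, did overlap.

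Lamc3 lies at chr2:31777258-31839117 (+ strand). Its normalized CPM was 4.23, 6.59 and 7.86 in female pools, against 9.49, 10.7 and 9.02 in male pools, with female pool 1 far below the rest. Its log2 fold change was -0.64 ± 0.21 (SE), with an edgeR adjusted p of 0.712. It ranged from -0.84 without female pool 3 to -0.43 without female pool 1 when each pool was left out in turn.

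Itgb7, a leukocyte beta subunit that pairs with Itga4 and Itgae, lies at chr15:102124429-102140379 (− strand). It was at 35.2, 34.2 and 32.1 TPM in female pools, against 41.5, 37.0 and 51.8 TPM in male pools. Every female pool was below every male pool, and male pool 3 was far above the rest in this sum over all transcripts. On long coding transcripts male pool 3 was at 38.2 TPM, against 37.5 and 33.6 TPM in the other male pools. Female pools were at 26.3 to 31.4 TPM on these transcripts. By normalized CPM the gap was narrow, with 48.2 to 56.4 in female pools and 57.7 to 71.4 in male pools. Its log2 fold change was -0.29 ± 0.09 (SE), with an edgeR adjusted p of 0.654.

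For Itgax, Itga6 and Itgb4, too, the gap between the sexes was small. The normalized CPM of Itgax, a subunit of dendritic cells and macrophages, was 18.3 to 22.0 in female pools and 22.2 to 22.8 in male pools. That of Itga6 was 581 to 631 in female pools and 632 to 663 in male pools, and that of Itgb4 was 550.3 to 569 in female pools and 512 to 542 in male pools. Their log2 fold changes were -0.14 ± 0.08, -0.11 ± 0.07 and 0.10 ± 0.06 (SE), with edgeR adjusted p-values of 0.851, 0.852 and 0.863. That of Itgax was -0.052 without female pool 3, and from -0.12 to -0.19 with any other pool left out. The TPM of the female and male pools overlapped for Itgax and Itga6. So did the long coding transcripts of Itga6, at 134 to 160 TPM in female pools and 148 to 155 TPM in male pools. Those of Itgax did not, but lay close, at 6.13 to 7.63 TPM in female pools and 7.69 to 8.04 TPM in male pools.

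**Figure D5:**
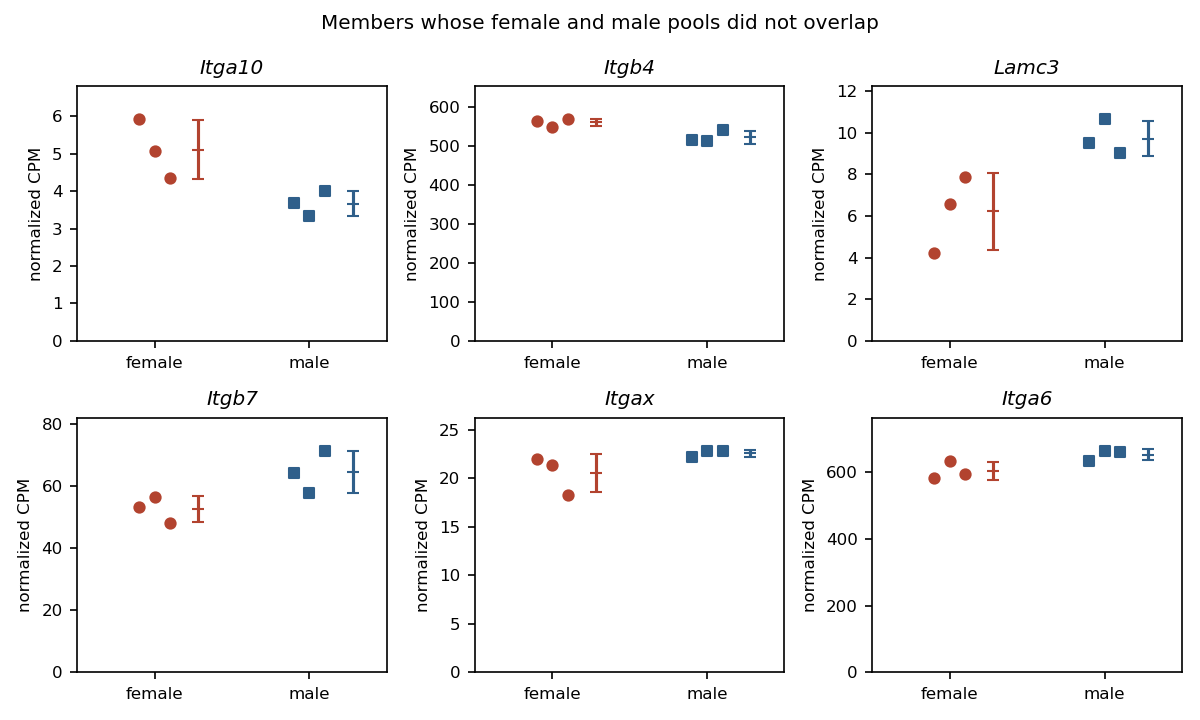
TMM-normalized CPM of the 6 members whose female pools (circles) and male pools (squares) did not overlap, with the mean and SD (n = 3) beside each group. The axes start at 0, and for each of the 6 the gap between the groups is smaller than the range within either group. Itga10 and Lamc3 lie at 10.7 CPM or less.

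Of 8 macrophage markers, 6 had a log2 fold change below 0, as Itgb7 and Itgax did, and none of the 8 was called. Of the 4 leukocyte alpha subunits tested, 3 (Itgam, Itgal and Itgae) had one above 0 and 1 (Itgax) had one below. The 8 macrophage markers summed to 1314 to 1505 TPM in female pools and 1545 to 1751 TPM in male pools, and 3 of them (Cd68, Csf1r and Adgre1) were below in every female pool by normalized CPM, as were 6.04% of all genes. An unadjusted p under 0.05 was seen for 3 lower in females, Cd68, Csf1r and C1qa (3.62% of all genes), and for 1 higher, Cd163 (2.49%). Csf1r, the receptor for macrophage growth factors, was at 178, 181 and 163 TPM in female pools, against 204, 240.5 and 189.6 TPM in male pools. Whether the share of macrophages accounts for the Itgb7 and Itgax values was not tested.

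Integrin adaptors, which connect the beta subunit tails to actin, were examined as a list of 17. All but Fermt1 passed the filter, and none was called. Tns1, a tensin, was the highest, at 166, 165 and 163 TPM in female pools, against 172, 154 and 136 TPM in male pools. Ilk, the pseudokinase at the centre of the adaptor complex, was next, at 149, 138 and 138 TPM in female pools, against 142, 140.0 and 141 TPM in male pools. Neither separated the groups.

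Within this list 4 adaptors had an unadjusted p under 0.05, 2 of them higher and 2 lower in females (6.11% of all genes tested). Fermt3, the kindlin of blood cells, was at 49.0, 50.0 and 48.2 TPM in female pools, against 58.0, 60.4 and 57.9 TPM in male pools, with a log2 fold change of -0.22 ± 0.06 (SE; edgeR adjusted p = 0.530). Tns2, another tensin, was at 68.2, 72.0 and 74.8 TPM in female pools, against 59.5, 63.0 and 66.4 TPM in male pools, with a log2 fold change of 0.23 ± 0.06 (SE; edgeR adjusted p = 0.552). Both kept the groups apart, Fermt3 with a gap wider than the spread within either sex. The others were Lims2, with a log2 fold change of 0.16 ± 0.07, and Parvg, a parvin of blood cells, with one of -0.28 ± 0.10 (SE). The female pools, lower in Fermt3, Parvg and Itgb7, were also those with the lower macrophage marker sum, and the part of macrophages in these values was not tested. Other leukocyte subunits went the other way, with log2 fold changes of 0.05 for Itgam, 0.13 for Itgal and 0.12 for Itgae.

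Receptors for laminin other than integrins were led by Dag1, dystroglycan, which binds the laminin alpha2 chain through its sugar chains. Dag1 was at 239, 242 and 212.7 TPM in female pools, against 228, 232 and 242 TPM in male pools, below Itgb1 in each pool. Sdc3, a syndecan of Schwann cells, was at 171, 178 and 186 TPM in female pools, against 216, 181 and 218 TPM in male pools. Of the 6 receptors, 0 were called and 1 had an unadjusted p under 0.05 (6.11% of all genes tested). That was Bcam, a receptor for the laminin alpha5 chain, at 109, 110.3 and 114 TPM in female pools, against 105, 104 and 102 TPM in male pools (log2 fold change 0.16 ± 0.06, SE; edgeR adjusted p = 0.750).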

How the data were processed

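Poly-A RNA of 3 female and 3 male pools of left sciatic nerves (2 mice each) was sequenced as stranded paired-end libraries. The authors trimmed reads with Trimmomatic 0.39 and quantified transcripts with Salmon, for which the submitters' processing notes give version 1.5.2. MultiQC 1.9 is also listed there. The authors' paper lists an earlier Salmon version, and the paper and the notes name different GENCODE releases. The deposited files give each transcript's estimated count, in read pairs and not always whole, and its TPM, which the authors' software scaled by effective transcript length and by the library's total.

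Both values were summed over each gene's transcripts. The 40 members and the lists of pathway and marker genes were chosen with earlier results of these data known. Summed counts were rounded and tested, female over male, with edgeR 4.0.16 in R 4.3.3 (quasi-likelihood test, TMM factors, robust fit) over the 16310 genes with CPM of 0.5 or more in 3 or more pools; p-values were adjusted by Benjamini-Hochberg over all of them and called under 0.1. Pools are the replicates. Shares and ratios of TPM were compared by exact two-sided permutation tests, adjusted over 5. Alternatives used DESeq2 1.42.0, limma 3.58.1, other factors and filters, length offsets, transcript subsets and each pool left out. Restricting levels to long coding transcripts was chosen after seeing the data. The scripts were tested on simulated data. Per-pool values are given for members with a mean of 10 TPM or more, an unadjusted p under 0.05 or groups that did not overlap, and for pathway genes by the same p or as the 2 highest of a list. Python 3.11.15 with pandas 2.3.3, NumPy 2.4.6, SciPy 1.17.1 and matplotlib 3.10.9 was used. Exons were read from GRCm39 with the GENCODE M39 annotation of the same transcript identifiers. Levels near 0 are limited by counting error.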

Additional observations from a re-analysis of the deposited data

How the results depend on the processing

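No member was called under any alternative run, and with each of the 6 pools left out the count of members called ranged from 0 to 0. The number of genes called in all, 10 by edgeR, was 159 by DESeq2, 49 with no filter on low counts, 4 with a stricter filter and 18 by limma with sample weights, and ranged from 3 to 8 with each pool left out. Shared replicate numbers did not pair the pools: same-numbered female and male pools deviated with r of -0.18, -0.16 and -0.15, and with the replicate block 5 genes were called and 6 members had an unadjusted p under 0.05, as had 5.28% of all genes. The log2 fold changes of the 14 genes given for their p or separation kept their direction in all 195 alternative values, and 1 was called (Tns2 by DESeq2, adjusted p = 0.0682). Over the 6 pools, the Lama4 share of the alpha chains was 42.9% by CPM and 60.1% with long coding transcripts, the Lamb2 share of the beta chains was 48.6% by CPM and 48.7% with long coding transcripts, and the Itgb1 share of the beta subunits was 33.7% by CPM. Itga1 to Itga11 summed to 0.987 times Itgb1 with protein-coding transcripts, 0.983 with long coding ones and 1.93 by CPM, and the leukocyte alpha subunits to 1.89 times Itgb2 by CPM. CPM does not correct for length. Adding Itgav to the Itga1 to Itga11 sum was chosen after seeing the data. With each pool left out these ranged from 47.0% to 47.7% (Lama4), 56.1% to 57.8% (Lamb2), 40.5% to 41.4% (Itgb1), 1.63 to 1.65 (Itga1 to Itga11 per Itgb1) and 1.22 to 1.28 (leukocyte). Of the 36 trimers and pairs, the lowest chain's level moved beyond the spread over pools for 11 with protein-coding and 14 with long coding transcripts.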

Other observations

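Of 13 genes that build the sugar chains by which dystroglycan binds laminin, 12 passed the filter and none was called. Pomgnt1, which extends the O-mannose chain, was the highest, at 40.2, 44.8 and 39.3 TPM in female pools, against 41.0, 38.1 and 39.1 TPM in male pools. B4gat1, which primes the laminin-binding repeat, was next, at 35.1, 37.6 and 40.9 TPM in female pools, against 37.3, 37.2 and 37.2 TPM in male pools. B3galnt2, which adds a sugar to the core, had the only unadjusted p under 0.05 of the list, at 20.4, 21.2 and 18.9 TPM in female pools, against 17.5, 16.8 and 15.7 TPM in male pools (log2 fold change 0.21 ± 0.07, SE; edgeR adjusted p = 0.750). Over all genes tested, 6.11% had such an unadjusted p.

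Netrins share laminin-like domains, and Ntn4 binds the laminin gamma1 chain. Of 6 netrin genes, 0 were called. Ntn1 was at 75.5, 63.9 and 65.6 TPM in female pools, against 78.5, 72.5 and 59.8 TPM in male pools. Ntn4 was at 37.1, 31.8 and 39.98 TPM in female pools, against 31.2, 28.1 and 26.2 TPM in male pools, and the groups did not overlap (log2 fold change 0.36 ± 0.10, SE; edgeR adjusted p = 0.552). By normalized CPM, the female pools lay above all male pools for Ntn4, as for 5.16% of all genes tested.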
